A study of Homo sapiens with 12 samples.

Results

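The mitochondrial ribosomal proteins are the protein part of the ribosome that works inside mitochondria. Their genes were taken as the protein-coding rows of the deposited gene counts whose symbol is MRPL or MRPS followed by a number and, in some, the letter A, B or C, which gave 78 of the 58735 genes counted. No expression value entered that choice. RNA was sequenced from C4.2B, a castration-resistant human prostate cancer cell line derived from LNCaP, in 4 arms with 3 libraries per arm. Controls received DMSO. The IPATA arm received ipatasertib, which inhibits AKT, at 0.25 μM, the TAZ arm received tazemetostat, which inhibits EZH2, at 1 μM, and the COMBO arm received both. Cells of the TAZ and COMBO arms had 6 days of tazemetostat beforehand, and every arm was collected 24 hours after dosing in charcoal-stripped FBS, a serum low in androgens. The study asked how each agent and the pair of them altered transcription. Because it is 1 line grown on replicate plates, p-values describe the spread between these plates.

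Mitoribosomes translate the few proteins encoded by mitochondrial DNA, all of them core parts of the respiratory chain and the ATP synthase. Their RNAs come from the mitochondrial genome, but every one of their proteins is encoded in the nucleus, made in the cytosol and imported. The large subunit joins amino acids and is anchored at the inner membrane, and the small subunit binds and decodes the mRNA. Some of the proteins descend from those of bacterial ribosomes, and others are found in mitochondria only.

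By the subunit that holds the protein, 51 of the 78 genes belong to the large subunit and 26 to the small one. The symbol does not always give the subunit. MRPS30 and MRPS18A carry a small-subunit symbol, but their proteins sit in the large subunit and were counted there. MRPS36 was counted in neither, because its protein belongs to the 2-oxoglutarate dehydrogenase complex. The genes lie on 21 chromosomes. All but MRPS24 passed the filter on low counts, so 77 were tested among 16646 genes. MRPS24 had 0 to 0.49 CPM, read counts scaled to the size of the library, in the 12 libraries, and its gene model lies wholly inside the same-strand read-through gene URGCP-MRPS24.

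The libraries held 14133755 to 22276417 counts, and libraries of 1 arm differed by more than sampling noise. The luminal prostate markers KLK3 (1338 to 3980 CPM) and KRT8 (242 to 597 CPM) were detected in every library, while of the basal markers KRT5 was at 0 throughout, TP63 reached at most 0.0459 CPM and KRT14 at most 0.322. Of 2 leukocyte markers CD3E was at 0 throughout and PTPRC reached 0.919 CPM, called higher in TAZ than in IPATA (2.97 on the log2 scale), and of 3 neuroendocrine markers SYP, from 1.25 to 2.60 CPM, was the highest. Of 3 fibroblast markers, COL1A1 ran from 4.27 to 17.6 CPM with its highest arm mean in TAZ, while COL3A1 reached at most 1.74 and DCN at most 0.322. Both fibroblast markers tested were higher in TAZ than in DMSO and 1 was higher in COMBO, and the part of these markers in the results below was not tested.

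Promoter sequence was examined because nuclear genes for mitochondrial proteins are known for sites of NRF1, ETS-family factors and YY1, and because MYC, which binds the E-box, is known to drive genes of ribosome production. Of the 78 genes, 69 entered with a RefSeq promoter window (GRCh38.p14) of 250 bases before to 50 bases after the RefSeq start. MRPL2, MRPL10, MRPL13, MRPL15, MRPL21, MRPL23, MRPL35, MRPS28 and MRPS36 had no window in these counts. MRPL13, MRPL15 and MRPS28, the only members on their chromosome, were left out as a group. The same genomic part was not left out of the tested genes or of all windows, so the shares below are not matched in this respect. On either strand, AAGATGGC, the core of the YY1 site, occurred in 20 of the 69 windows (29.0%), against 5.26% of 10939 tested genes and 2.89% of all 35116 windows. CCGGAAG, an ETS core, occurred in 29 (42.0%), against 18.7% and 10.3%. GCGCANGCG, the NRF1 core, occurred in 13 (18.8%), against 14.8% and 7.52%. CACGTG, the E-box, occurred in 7 (10.1%), against 10.3% and 7.26%. Thus the YY1 and ETS letters were more frequent in these 69 mitoribosomal windows than among tested genes, and the E-box was as frequent. The ETS and YY1 cores can share the letters AAG, which happened in 0 of the 69 windows, and GCGCANGCG can match both strands at neighbouring positions. Median GC content of the windows was 60.3% against 65.3% for tested genes.

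The YY1 letters are shown with 10 bases on each side where the window allows, because of where they lie. Of the genes with the core, 13 had at least 10 counts in every library and a RefSeq start within 200 bases of the start used for counting, and they held 14 matches. In 10 of the 13 the match began at or after the RefSeq start and read AAGATGGC on the gene's own strand. The other 3, listed last, had their matches upstream, MRPL47 at position -84 and MRPL32 at -222, both reading GCCATCTT, and MRPL52 at -98 and -64, both reading AAGATGGC. Capitals mark the core. The letters include ATG, and where translation starts in each gene was not examined.
MRPL50: gatctcatcgAAGATGGCggcgcgatct
MRPL22: gggagggcgaAAGATGGCggcggca
MRPL20: cgacccgggcAAGATGGCagcggcgctg
MRPL46: gggagaacgaAAGATGGCggcgcccgta
MRPL42: ggattgaaacAAGATGGCgggttcgtgg
MRPS18A: taggtttttgAAGATGGCggccctcaag
MRPS30: atcgcgggcaAAGATGGCggcggccagg
MRPS10: cgggaccggcAAGATGGCggcgcggaca
MRPS18B: ggcgtacgtcAAGATGGCggcgtctgta
MRPL45: ttgcgggaacAAGATGGCagcccccata
MRPL47: gcaggatgtgGCCATCTTaagtgagggc
MRPL32: cccgcgctccGCCATCTTtacccgaaga
MRPL52, site at -98: acgatgacccAAGATGGCggagccgtga
MRPL52, site at -64: acccagattcAAGATGGCgacttcctgc
The MRPL50 site lies at chr9:101398578-101398605 on the minus strand and begins 24 bases into the gene, and the MRPL45 site lies at chr17:38297171-38297198 on the plus strand, 14 bases in. These 2 genes stood far apart in their response, as given below.

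Stretches just upstream of the counted gene models follow for 2 of the lowest genes in COMBO and 2 that kept most of their level. They end at -62 (MRPL17), -1 (MRPL50), -146 (MRPL45) and -106 (MRPL30) from the RefSeq start. Their lengths are 189, 250, 105 and 145 bases in that order. They cover unlike parts of the promoters, so a core missing from a stretch may lie outside it. Capitals mark the NRF1 core, and in MRPL30 also the ETS core on the minus strand (the first run of capitals).
MRPL17: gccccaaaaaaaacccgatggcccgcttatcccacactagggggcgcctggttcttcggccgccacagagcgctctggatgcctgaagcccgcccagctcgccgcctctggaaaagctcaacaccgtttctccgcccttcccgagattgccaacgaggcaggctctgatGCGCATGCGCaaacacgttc
MRPL50: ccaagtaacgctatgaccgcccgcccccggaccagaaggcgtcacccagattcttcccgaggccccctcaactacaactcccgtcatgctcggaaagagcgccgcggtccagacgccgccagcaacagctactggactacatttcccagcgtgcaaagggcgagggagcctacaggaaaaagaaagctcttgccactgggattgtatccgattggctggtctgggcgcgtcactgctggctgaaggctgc
MRPL45: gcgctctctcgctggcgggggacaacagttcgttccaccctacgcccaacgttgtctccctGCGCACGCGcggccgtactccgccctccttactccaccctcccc
MRPL30: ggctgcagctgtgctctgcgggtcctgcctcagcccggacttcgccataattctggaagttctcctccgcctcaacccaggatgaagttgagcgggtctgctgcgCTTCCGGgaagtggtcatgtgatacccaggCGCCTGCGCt
MRPL17 (chr11:6683402-6683590, minus strand) held 2 overlapping NRF1 matches, 1 on each strand, and MRPL50 (chr9:101398619-101398868, minus strand) held none of the cores. MRPL45 (chr17:38296918-38297022, plus strand) and MRPL30 (chr2:99180934-99181078, plus strand) held 1 NRF1 match each. The same choice of extremes also held MRPS25 (-1.88) and MRPS18B (-0.57), not printed, whose upstream stretches held none of the cores. NRF1 letters were thus both present and absent upstream of genes at each end of the range. Across the tested members whose window entered, the median log2 fold change in COMBO against DMSO was -1.11 with the YY1 core (19 genes) and -1.09 without (49 genes). It was -1.07 with the ETS core (29 genes) and -1.16 without (39 genes), and -1.15 with the NRF1 core (13 genes) and -1.10 without (55 genes). With the E-box it was -1.16 (7 genes) and without it -1.10 (61 genes). These differences were not tested.

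In COMBO against DMSO the mRNAs of nearly the whole mitoribosome fell. Of 77 tested members 75 were lower and 0 higher, while 35.2% of all tested genes were lower and 38% higher (edgeR quasi-likelihood test, Benjamini-Hochberg adjusted p under 0.05). The median member stood at -1.10 on the log2 scale, and the median of all tested genes at 0.06. Scaling by library size alone moved the median of all genes to 0.26 and that of the members to -0.90, with 75 members still lower. Each of the 75 members called had all 3 COMBO libraries below all 3 DMSO libraries. How often genes called lower separate in this way over all tested genes was not computed, so this is not a trait of the members. Together the members took 0.701% to 0.756% of all counts in DMSO, 0.582% to 0.593% in IPATA, 0.450% to 0.473% in TAZ and 0.382% to 0.387% in COMBO, so the 4 arms did not overlap. In bulk RNA, less mRNA per cell and a change in which cells remain cannot be told apart.

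**Figure D1:**
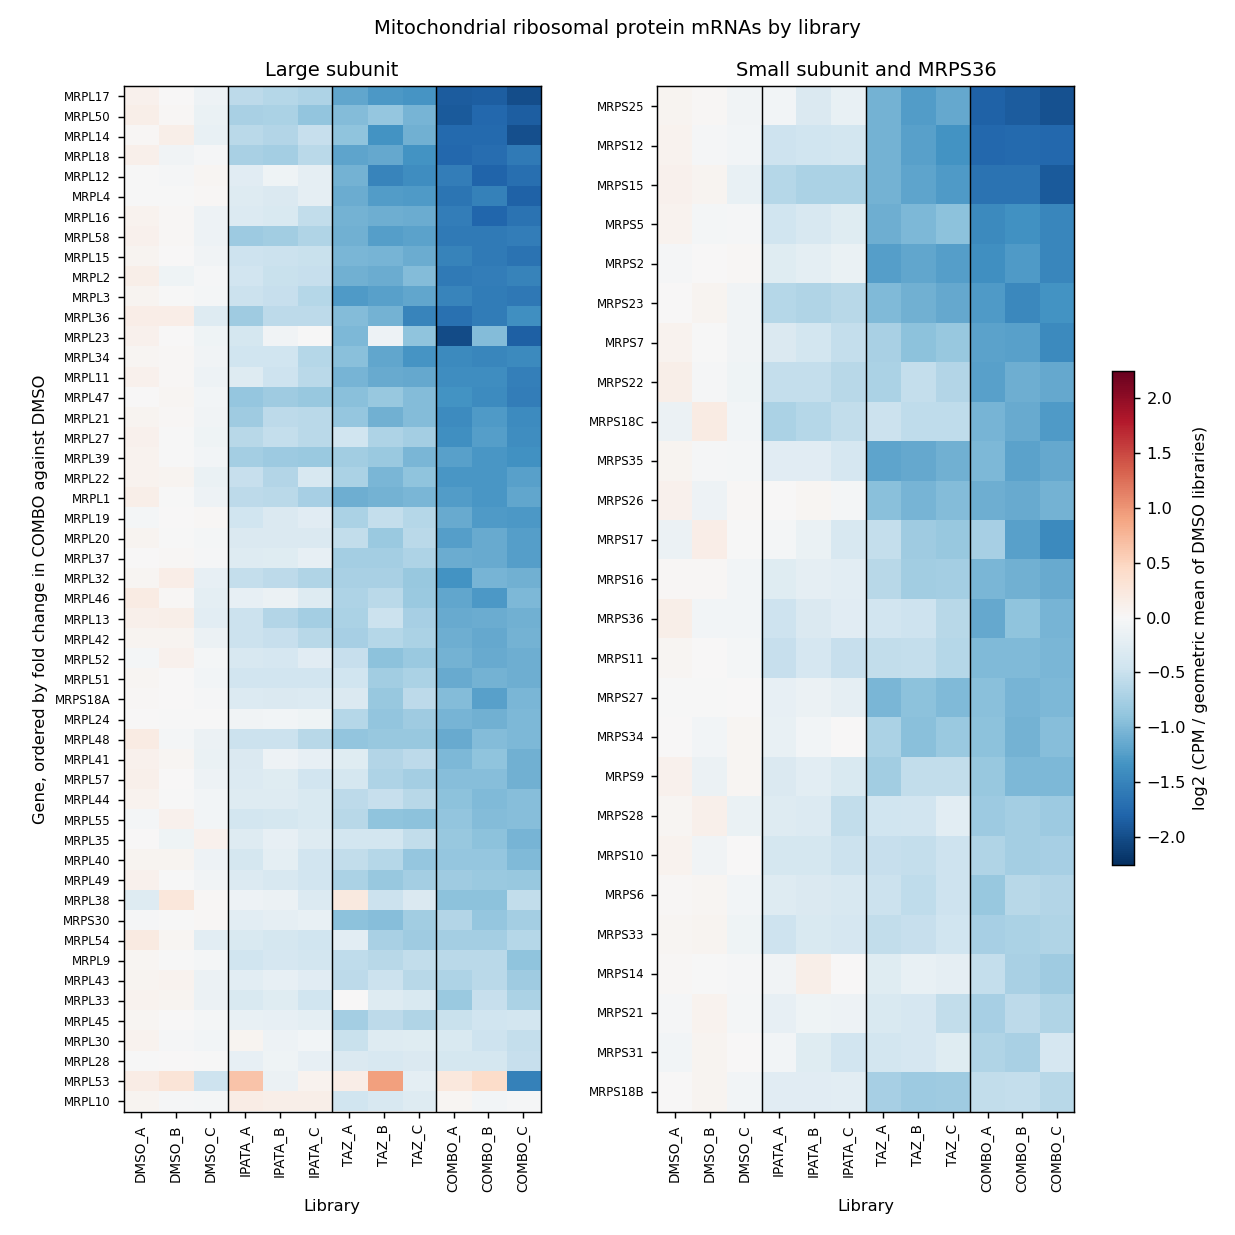
Each row is 1 of the 77 tested genes and each column 1 of the 12 libraries; colour gives the log2 ratio of its CPM to the geometric mean of the DMSO libraries, with large-subunit genes on the left and small-subunit genes and MRPS36 on the right, ordered by fold change in COMBO against DMSO. In 66 of the 77 genes the arm means step down from DMSO through IPATA and TAZ to COMBO, with MRPL10 and MRPL53 at the foot of the left panel as the 2 genes without a call in COMBO against DMSO.

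MRPL17 had the largest decrease in COMBO against DMSO. It encodes a large-subunit protein with a bacterial counterpart. Its level was 164, 156 and 143 CPM in DMSO, 103, 99.3 and 95.7 in IPATA, 68.4, 63.2 and 61.2 in TAZ and 42.2, 42.7 and 38.5 in COMBO. The arms did not overlap, and each fell below the one before. The log2 fold change in COMBO against DMSO was -1.90 ± 0.07 (SE, n = 3 per arm; edgeR adjusted p = 1.8e-24), which left 26.7% of the DMSO level.

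MRPS25, a small-subunit protein found in mitochondria only, followed another course to nearly the same end. It measured 74.5, 72.6 and 67.9 CPM in DMSO, 68.2, 57.0 and 63.4 in IPATA, 34.4, 29.8 and 32.2 in TAZ and 20.3, 19.5 and 18.4 in COMBO. IPATA overlapped DMSO, whereas TAZ and COMBO lay well below both. The log2 fold change was -1.88 ± 0.08 in COMBO (adjusted p = 1.0e-21) and -0.19 ± 0.07 in IPATA (adjusted p = 0.040), and the IPATA call was lost under 6 of the alternatives tried.

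MRPL50, a large-subunit protein found in mitochondria only, measured 89.7, 83.6 and 73.8 CPM in DMSO and 22.3, 24.0 and 22.8 in COMBO. Between them, IPATA (49.8, 50.1 and 44.6) and TAZ (41.7, 45.2 and 39.6) touched each other but neither touched DMSO or COMBO. The fold change in COMBO was -1.84 ± 0.08 on the log2 scale. The next 3 genes all have bacterial counterparts. MRPL14, which faces the small subunit, fell by 1.82, MRPS12, which lines the decoding centre, fell by 1.76, and MRPS15, which in bacteria binds the rRNA early, fell by 1.73 on the log2 scale. MRPS12 dropped from 109 to 120 CPM in the DMSO libraries to 33.1 to 33.6 in COMBO, a very tight group.

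At the other end, 2 members were not called in COMBO against DMSO and 4 were called with small changes. MRPL10 stood at -0.02 ± 0.06 (adjusted p = 0.80). With 1.01 to 1.70 CPM in the DMSO libraries, MRPL53 was the least abundant tested member. Its estimate of -0.07 ± 0.41 could not be told from 0 at this depth, and its distance from the median member was not tested. MRPL28 and MRPL30, both with bacterial counterparts, were each at -0.44. MRPL45 was at -0.45 and MRPS18B at -0.57, all 4 with an adjusted p under 0.05. For MRPL28 the libraries read 89.7, 90.7 and 89.0 CPM in DMSO and 68.2, 68.2 and 62.7 in COMBO, which is 73.9% of the DMSO level.

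**Figure D2:**
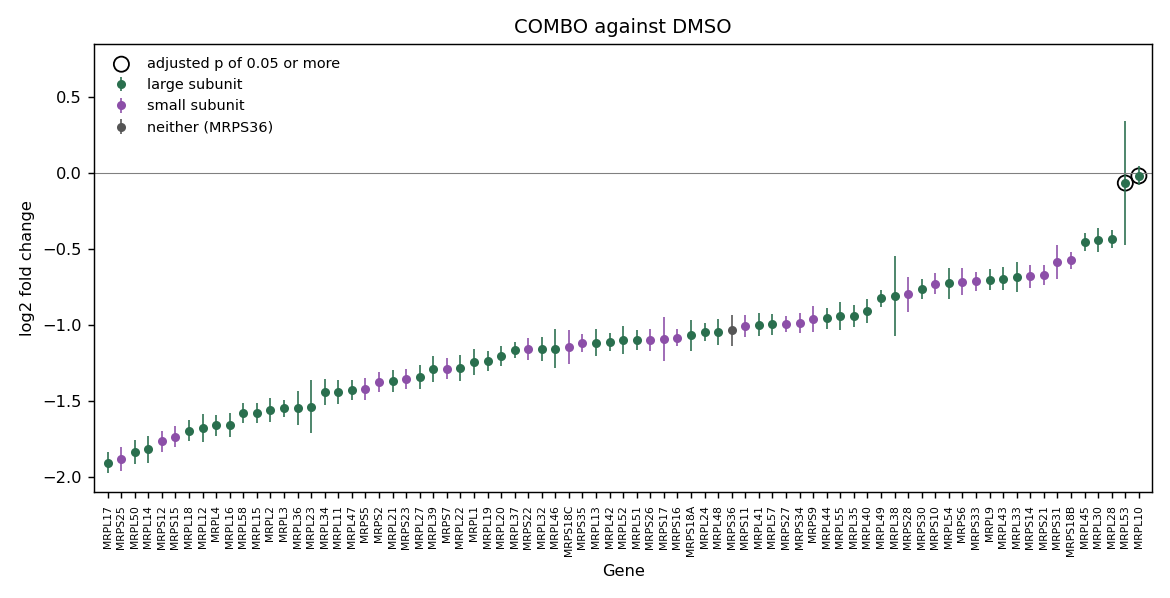
Log2 fold change of each tested gene in COMBO against DMSO (points, with bars of 1 SE from the fit to 3 libraries per arm), coloured by subunit; open circles ring the genes with an adjusted p of 0.05 or more. The 2 subunits are interleaved from MRPL17 at -1.90 to MRPL10 at -0.02.

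Large- and small-subunit genes fell by similar amounts. In COMBO against DMSO, 49 of 51 large-subunit genes and 25 of 25 tested small-subunit genes were lower, where 35.2% of all tested genes were lower. The medians of the large and small subunit were -1.15 and -1.08 on the log2 scale. The difference between the medians was -0.07, against a standard deviation of 0.04 for that difference between libraries of 1 arm. In IPATA against DMSO the large-subunit median was -0.38 and the small-subunit median -0.31, and in TAZ against DMSO they were -0.75 and -0.73. In single libraries the large minus small difference was -0.104 to -0.063 in IPATA and -0.146 to -0.037 in COMBO, below every DMSO library (-0.024 to 0.032), and -0.041 to 7.2e-05 in TAZ, which overlapped DMSO. No test was run on these medians, since the genes are not replicates.

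The summed CPM of large-subunit genes was 5178 ± 253 in DMSO and 2343 ± 42.6 in COMBO (SD, n = 3), and that of small-subunit genes was 2638 ± 78.2 and 1244 ± 31.3. Their ratio was 1.92 to 1.99 in the DMSO libraries, 1.83 to 1.85 in IPATA, 1.98 to 2.07 in TAZ and 1.85 to 1.91 in COMBO. IPATA and COMBO libraries lay below every DMSO library in this ratio, and TAZ overlapped DMSO. Per kilobase of gene model, the median gene had 34.2 FPKM in the large subunit and 25.3 in the small one in DMSO, compared with 3.62 over all tested genes.

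**Figure D3:**
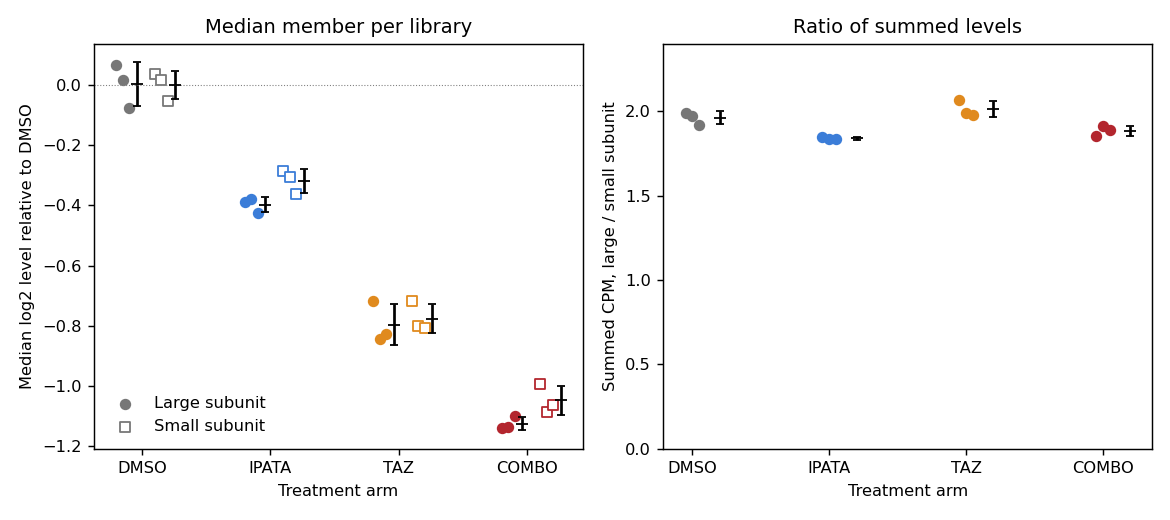
Left, the median log2 level of large-subunit (filled circles) and small-subunit (open squares) genes in each library relative to the DMSO mean; right, the ratio of their summed CPM. Points are libraries and bars the mean ± SD of 3 libraries; both subunits step down from DMSO to COMBO on the left, while the ratio on the right stays between 1.83 and 2.07.

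Within the large subunit the medians differed by evolutionary origin. For the 29 large-subunit genes with a bacterial counterpart the median in COMBO against DMSO was -1.37 on the log2 scale, and for the 21 found in mitochondria only it was -1.00. Among small-subunit genes the medians were -1.08 (15 genes) and -1.05 (10 genes). Spread among the genes of each class was wide, with a standard deviation of 0.45 and 0.37 in the large subunit, and the difference was not tested. In the single agents the large-subunit medians were -0.48 and -0.33 in IPATA and -0.93 and -0.69 in TAZ, and all 3 comparisons share the DMSO libraries. In the small subunit the medians in TAZ stood in the other order, with -0.63 for genes with a bacterial counterpart and -0.91 for the rest.

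The proteins of the stalk, the flexible arm that recruits translation factors to the large subunit, did not move together. MRPL10 is its base, MRPL12 forms the arm and MRPL11 holds the base to the rRNA. MRPL12 measured 52.1, 51.3 and 53.8 CPM in DMSO, 43.8, 48.8 and 45.4 in IPATA, 25.1, 18.6 and 19.8 in TAZ and 17.9, 15 and 16.2 in COMBO. COMBO lay below TAZ and both lay far below DMSO and IPATA. Its log2 fold change in COMBO against DMSO was -1.68 ± 0.09 (adjusted p = 2.8e-18), and that of MRPL11 was -1.44 ± 0.08 (adjusted p = 6.8e-19).

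MRPL10 measured 76.5, 71.8 and 70.8 CPM in DMSO, 81.7, 80.4 and 80.5 in IPATA, 53.5, 56.6 and 59.8 in TAZ and 74.9, 69.9 and 71.3 in COMBO. Only TAZ was clearly below DMSO (-0.36 ± 0.06, adjusted p = 5.6e-06), and COMBO was above TAZ (0.35 ± 0.06, adjusted p = 2.2e-05). In IPATA it was 0.15 ± 0.06 above DMSO (adjusted p = 0.059). Scaling by library size alone makes MRPL10 higher than DMSO in both IPATA (0.21, adjusted p = 0.0076) and COMBO (0.18, adjusted p = 0.011). The ratio of MRPL12 to MRPL10 in CPM, which does not depend on scaling, went from 0.681 to 0.760 in the DMSO libraries to 0.214 to 0.239 in COMBO. The ratio of MRPL11 to MRPL10 went from 1.13 to 1.24 in DMSO to 0.421 to 0.470 in COMBO. The gene model of MRPL12 lies almost wholly (99.7%) inside a same-strand coding gene, AC139530.2, so part of its reads may not have been counted, whereas MRPL10 has no overlap. MRPL10 shares a divergent promoter region with LRRC46, 93 bases away, which was higher in COMBO (0.59 on the log2 scale).

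**Figure D4:**
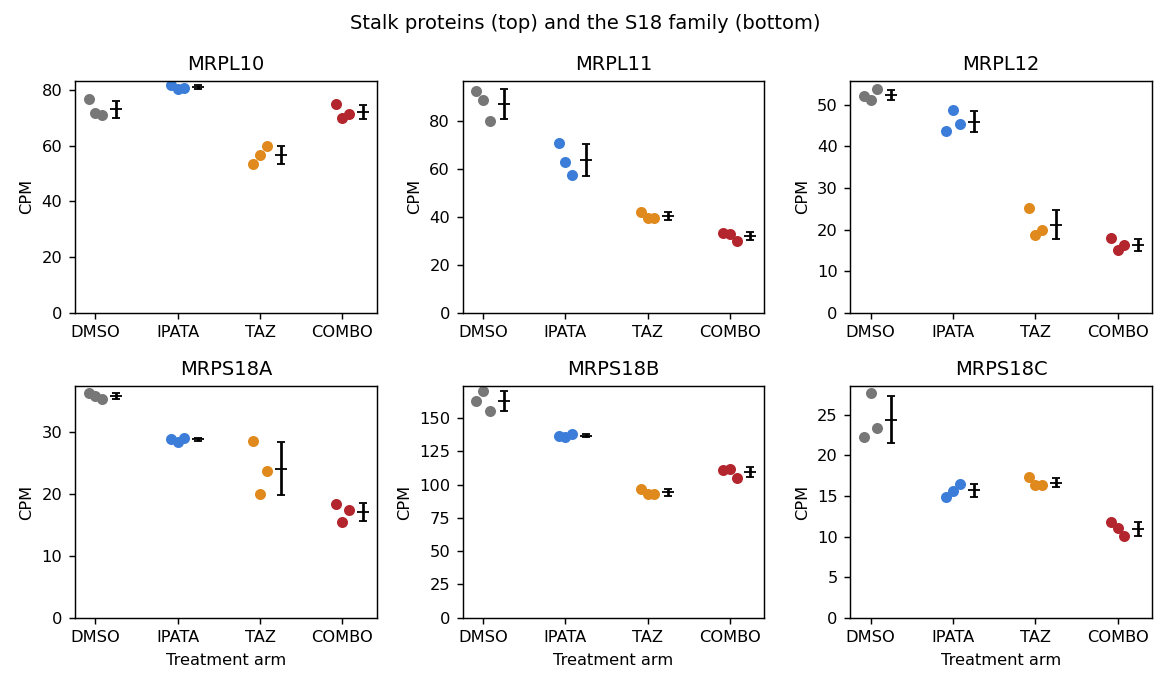
CPM of the 3 stalk genes (top) and the 3 genes of the S18 family (bottom) in each library, by arm; points are libraries, bars the mean ± SD of 3 libraries, and each vertical axis starts at 0. MRPL11 and MRPL12 step down to COMBO, whereas MRPL10 and MRPS18B are lowest in TAZ and higher again in COMBO.

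The S18 family has 3 nuclear genes whose proteins occupy different places, MRPS18C at the position of bacterial S18, MRPS18B elsewhere in the small subunit and MRPS18A in the large subunit. MRPS18A fell by 1.07 and MRPS18C by 1.15 on the log2 scale in COMBO against DMSO. MRPS18B decreased less, by 0.57. It read 163, 170 and 155 CPM in DMSO, 137, 136 and 138 in IPATA, 96.8, 92.6 and 92.9 in TAZ and 111, 112 and 105 in COMBO. All COMBO libraries thus lay between IPATA and TAZ, and COMBO was above TAZ by 0.22 ± 0.06 (adjusted p = 0.0017). MRPS18C took the opposite course, with COMBO at 11.8, 11.1 and 10.1 CPM below both TAZ (16.3 to 17.3) and IPATA (14.9 to 16.5).

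Along the polypeptide exit tunnel and at the membrane, 5 of 5 genes fell in COMBO, as did 75 of all 77 tested members and 35.2% of all tested genes. MRPL22, MRPL23 and MRPL24 ring the tunnel exit, MRPL44 lies near it, and MRPL45 ties the ribosome to the inner membrane. MRPL22 decreased by 1.28, MRPL24 by 1.05 and MRPL44 by 0.96 on the log2 scale. MRPL45 was the exception in size at -0.45 ± 0.06, with 143, 139 and 135 CPM in DMSO, 81.2, 92.1 and 87.1 in TAZ and 98.2, 102 and 104 in COMBO. Like MRPL10 and MRPS18B it was higher in COMBO than in TAZ, with no overlap (0.22 ± 0.06, adjusted p = 0.0018). MRPL23 decreased by 1.54 but was uneven within arms, at 20.2, 37.6 and 21.7 CPM in TAZ and 10.1, 20.9 and 11.4 in COMBO. Its second library was the high one in both arms. Without that TAZ library the fold change in TAZ against DMSO moved from -0.63 to -0.96, and without that COMBO library the change in COMBO against DMSO moved from -1.54 to -1.93.

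Small-subunit genes along the mRNA path all decreased in COMBO, as did all 25 tested small-subunit genes and 35.2% of all tested genes. Besides MRPS12, these were MRPS5 at the mRNA entry (-1.42 ± 0.07), MRPS7 on the exit side (-1.29 ± 0.07) and MRPS9, which reaches the peptidyl site (-0.96 ± 0.09). In CPM, MRPS5 stood at 78.8, 72.3 and 72.9 in DMSO and 27.5, 29.1 and 26.9 in COMBO.

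Mutations in many of the genes are known to cause mitochondrial translation disorders. A list of 8 such genes was chosen, which is not complete (MRPL3, MRPL12, MRPL44, MRPS2, MRPS7, MRPS16, MRPS22 and MRPS34). In COMBO against DMSO 75 of all 77 tested members and 35.2% of all tested genes were lower. All 8 listed genes were among these, with a median log2 fold change of -1.22. MRPL3, the most abundant of them in CPM, went from 372, 355 and 348 CPM in DMSO to 129, 121 and 118 in COMBO, which is 34.2% of DMSO. MRPS34, the small-subunit member with the highest FPKM in DMSO, was not called in IPATA (-0.07 ± 0.06, adjusted p = 0.40) and fell by 0.99 in COMBO. MRPS16 kept 47.2% and MRPS22 kept 44.8% of the DMSO level.

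Members whose symbol or job is unusual fell as well. MRPL58, a release factor built into the large subunit, fell by 1.58 on the log2 scale. MRPS30 of the large subunit fell by 0.76, and MRPS36, which is no ribosomal protein, fell by 1.04 (48.8% of DMSO), close to the median member. Size of the response went little with the level in DMSO. Across the 77 genes, Spearman's rho of the log2 fold change in COMBO with DMSO FPKM was -0.23 and with the length of the gene model -0.017, as a description over genes of the same libraries. The highest levels in DMSO were those of MRPL41 (137 ± 12.3 FPKM, SD, n = 3), MRPL3 (132 ± 4.63) and MRPS34 (130 ± 5.27), and the lowest were MRPS24 (0.045 ± 0.043), MRPL38 (0.91 ± 0.17) and MRPL53 (1.05 ± 0.27).

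The median level was lower among members inside another gene model, but not every such member was low. In 8 members (MRPL12, MRPL30, MRPL38, MRPL46, MRPL53, MRPS17, MRPS24 and MRPS28) at least 90% of the gene model lies inside another coding gene on the same strand, where a counter that drops ambiguous reads loses them. Their median in DMSO was 5.20 FPKM (range 0.045 to 51.0), against 34.2 (range 5.02 to 137) for the other 70. MRPL12 was the highest of the 8, and whether reads were lost in this way was not tested. Without them, 69 of the remaining 70 tested members were lower in COMBO against DMSO and the median log2 fold change was -1.11. Processed pseudogenes are also known for many of these genes, and reads shared with such copies cannot be assigned with certainty. Of the 78 members, 38 overlap a gene on the opposite strand, MRPS12 and MRPS25 among them, whose reads can be told apart only if counting used the strand.

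With EZH2 inhibition alone the decrease was already broad. In TAZ against DMSO 74 of 77 members were lower and 0 higher, where 31.5% of all genes tested were lower and 32.6% higher, and the median member stood at -0.74. Of the 74, 73 had TAZ libraries wholly below DMSO, a share that was not computed over all tested genes. The largest decreases were in MRPL12 (-1.31 ± 0.09), MRPL17 (-1.26 ± 0.06) and MRPL18, a protein of the central protuberance (-1.23 ± 0.07), all with an adjusted p of 3.7e-15 or less. No call was made for MRPL33 (-0.21 ± 0.09, adjusted p = 0.056), MRPL38 (-0.19 ± 0.25, adjusted p = 0.52) and MRPL53 (0.35 ± 0.39, adjusted p = 0.45).

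AKT inhibition alone lowered fewer members and by less. In IPATA against DMSO 63 members were lower and 0 higher, where 21.9% of all genes tested were lower and 20.6% higher, and the median member was -0.35. The lowest were MRPL47 (-0.84 ± 0.06), MRPL39 (-0.80 ± 0.08) and MRPL50 (-0.77 ± 0.08). MRPL47 has a bacterial counterpart near the tunnel exit, and it went from 116, 118 and 110 CPM in DMSO to 62.6, 65.7 and 63.3 in IPATA, with no overlap. In TAZ it was 59.8, 63.1 and 58.0 CPM, a level not told apart from IPATA (-0.08 ± 0.07, adjusted p = 0.30). The highest estimates in IPATA against DMSO were MRPL53 at 0.23 ± 0.41, MRPL10 and MRPS14 at 0.02 ± 0.08 (adjusted p = 0.88), none of them called.

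Set against each other, the single-agent arms differed in most members. The TAZ arm had 6 days of tazemetostat beforehand and the IPATA arm received no inhibitor beforehand, so agent and length of exposure cannot be told apart. In TAZ against IPATA 59 were lower and 0 higher, with 25.1% of all genes lower and 25.4% higher, and a median of -0.37. MRPL12 differed most (-1.13 ± 0.09), then MRPS2 (-1.01 ± 0.06) and MRPS26 (-0.99 ± 0.07). For MRPS26 the DMSO libraries read 71.2, 61.7 and 67.5 CPM and the IPATA libraries 66.7, 68.4 and 65.1, which overlap, whereas TAZ read 34.8, 32.2 and 33.9 and COMBO 31.3, 30.6 and 31.9. COMBO lay just below TAZ for MRPS26 (-0.10 ± 0.07, adjusted p = 0.26), and both lay far below the arms without tazemetostat. The highest estimates were MRPL33 at 0.15 ± 0.10, MRPL53 at 0.12 ± 0.39 and MRPS18C at 0.09 ± 0.11, none of them called.

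Adding the other agent lowered most members further. In COMBO against IPATA 76 members were lower and 0 higher (32.1% of all genes lower and 32.1% higher), with a median of -0.71, from MRPS25 (-1.69 ± 0.08), MRPL12 (-1.49 ± 0.10) and MRPL4 (-1.38 ± 0.07) to MRPL28 (-0.28 ± 0.06), MRPL45 (-0.26 ± 0.06) and MRPL10 (-0.17 ± 0.06, adjusted p = 0.021). The call for MRPL10 was lost with library size scaling (-0.03, adjusted p = 0.71). In COMBO against TAZ 56 were lower and 3 higher (25.7% of all genes lower and 21.1% higher), with a median of -0.39. MRPL23 (-0.91 ± 0.18), MRPL50 (-0.87 ± 0.08) and MRPS25 (-0.73 ± 0.08) fell most, although MRPL23 was at -0.58 without the second TAZ library, and the 3 that rose were MRPL10, MRPL45 and MRPS18B. MRPS35 (0.01 ± 0.06) and MRPS27 (-0.01 ± 0.05), both of the small subunit and named after their values were seen, had overlapping libraries in COMBO and TAZ.

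Taking both contrasts together, 56 of 77 members (72.7%) were lower in COMBO than in IPATA and also lower than in TAZ, a pattern that 19.7% of all genes tested had. The share was 72.5% for the large subunit and 72% for the small one. The arm means ran in the order DMSO, IPATA, TAZ, COMBO from high to low in 66 members (85.7%), against 19% of all tested genes. Of all 77, neighbours in that order could be told apart in 63 members for DMSO and IPATA, in 59 for IPATA and TAZ and in 56 for TAZ and COMBO.

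The interaction, COMBO minus IPATA minus TAZ plus DMSO on the log2 scale, asks whether the agents together did more or less than the sum of each alone. Its median over members was -0.01, and for 59 it was not called. It was called in 18 of 77, 5 negative and 13 positive, while 17.5% of all genes tested were negative and 10.7% positive. A negative value means that COMBO was below the sum of both single effects, as for MRPS25 (-0.54 ± 0.11, adjusted p = 0.00031), MRPS14 (-0.48 ± 0.11, adjusted p = 0.00066) and MRPL23 (-0.76 ± 0.24, adjusted p = 0.015). MRPS14, a small-subunit protein with a bacterial counterpart, was not called in IPATA against DMSO. It read 56.6, 55.0 and 54.3 CPM in DMSO, 52.1, 60.4 and 55.3 in IPATA, 45.7, 49.0 and 48.0 in TAZ and 38.3, 33.3 and 31.7 in COMBO. A positive value means that the pair took away less than the sum, as for MRPL1 (0.47 ± 0.12, adjusted p = 0.0038), MRPS18B (0.46 ± 0.08, adjusted p = 1.7e-05) and MRPL45 (0.41 ± 0.08, adjusted p = 0.00017). MRPL1, whose protein lies at the exit for spent tRNA, measured 51.4, 46.9 and 43.4 CPM in DMSO, 31.2, 31.1 and 28.2 in IPATA, 22.1, 22.4 and 23.1 in TAZ and 19.8, 19.1 and 20.9 in COMBO. MRPL53 had an estimate of -0.64 ± 0.56 that was not called (adjusted p = 0.44).

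**Figure D5:**
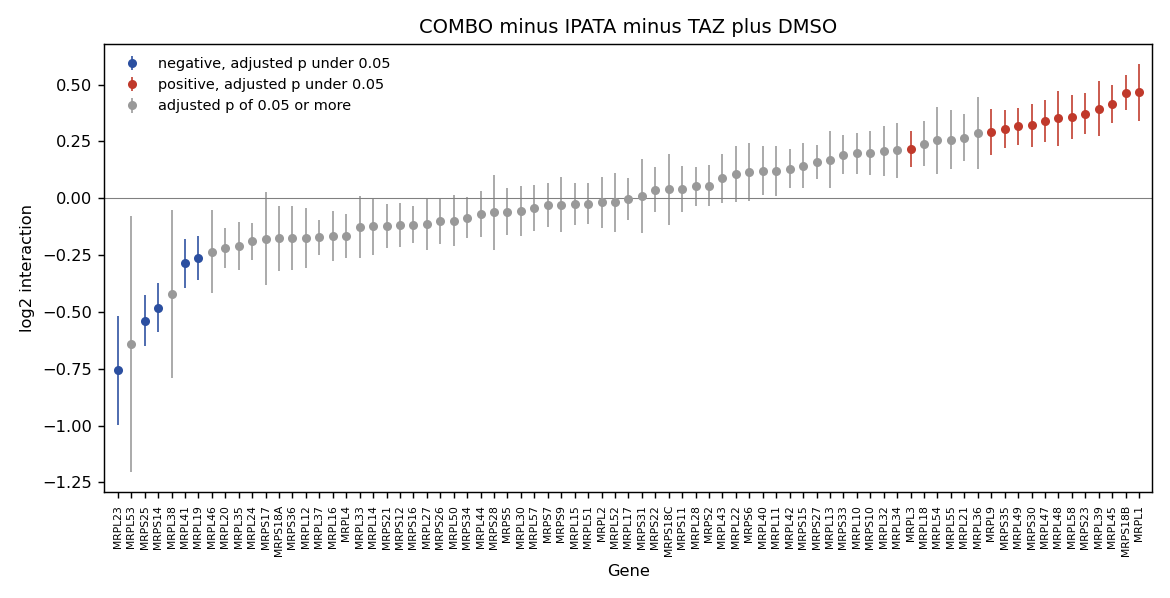
Interaction of the agents on the log2 scale for each tested gene, as points with bars of 1 SE from the fit to 12 libraries; colours mark the 5 negative and 13 positive values with an adjusted p under 0.05. The other 59 points are grey, MRPL23 is lowest at -0.76 and MRPL1 highest at 0.47.

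Other genes of mitochondrial translation were read from lists chosen by role. In COMBO against DMSO 35.2% of all tested genes were lower and 38% higher. The 5 mitoribosomal proteins with other symbols all fell in COMBO against DMSO, with a median log2 fold change of -1.42. PTCD3 (-1.52 ± 0.07), CHCHD1 (-1.50 ± 0.09), GADD45GIP1 (-1.42 ± 0.08) and AURKAIP1 (-1.09 ± 0.06) lay in the range of the members, and DAP3, a GTP-binding protein of the small subunit, fell least (-0.39 ± 0.05). Of 28 factors that assemble the mitoribosome or modify its rRNA, 25 were lower and 1 higher, with a median of -0.77. MPV17L2 (-1.59 ± 0.10), MTERF3 (-1.48 ± 0.14) and METTL17 (-1.37 ± 0.11) were lowest, TFB1M (-0.26 ± 0.14) and NOA1 (-0.10 ± 0.07) were not called, and YBEY, an endoribonuclease, was higher (0.52 ± 0.13). Of 17 translation factors and related proteins, 15 were lower, with a median of -0.89. SLIRP, which helps to stabilise mitochondrial mRNAs, fell by 2.11, PDF, which removes the formyl group from new proteins, fell by 1.31, and TSFM, an elongation factor, fell by 1.23. MTIF2, an initiation factor, fell by 0.22, about the size of the shift between scalings, while RMND1 (0.00 ± 0.12) and MTIF3 (0.02 ± 0.06) were not called.

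Against DMSO, the mRNAs that mitoribosomes translate went the other way. In COMBO 35.2% of all tested genes were lower than in DMSO and 38% higher. All 13 mRNAs encoded by mitochondrial DNA were higher in COMBO than in DMSO, with a median of 0.55, from MT-CO3 at 0.40 ± 0.08, MT-ATP8 at 0.44 ± 0.13 and MT-ND5 at 0.44 ± 0.09 to MT-ND1 at 0.78 ± 0.09, MT-ND3 at 0.79 ± 0.09 and MT-CO1 at 1.02 ± 0.09. They were also higher in IPATA (median 0.46) and TAZ (median 0.63), and 12 of the 13 had a negative interaction. Between treated arms the difference was smaller. In COMBO against IPATA 4 of the 13 were higher and 9 not called (median 0.09). In COMBO against TAZ 2 were lower, 2 higher and 9 not called (median -0.07). Ribosomal proteins of the cytosol were read for comparison. Of 84 tested, 82 were lower and 1 higher in COMBO, with a median of -0.68 against -1.10 for the mitochondrial set, and in IPATA 43 were lower and 4 higher, with a median of -0.17. The difference between the sets was not tested.

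Genes that share a promoter region were also compared. A coding gene that starts within 1000 bases on the opposite strand and runs away from the member was found for 19 of the 78 members (24.4%), against 11.8% of 13083 tested coding genes. Of the 18 such partners tested, 11 were lower in COMBO against DMSO, 3 higher and 4 not called, with a median of -0.77, where 35.2% of all tested genes were lower and 38% higher, and MRPL46 and MRPS11 are partners of each other. ZNF189, 259 bases from MRPL50, was higher (0.48), although MRPL50 was among the 3 lowest members.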

How the data were processed

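PolyA RNA-seq counts were analysed for 12 libraries, 3 in each of the arms DMSO, IPATA, TAZ and COMBO. The authors aligned reads to hg38 with STAR and counted them on genes with HTSeq, and the deposited values used here are these raw counts, whole numbers for 58735 genes. The deposited gene lengths, which belong to no sample, served for FPKM. Tool versions, annotation release and strand setting are not given in the sources used here, so overlapping genes may have had reads lost or merged. The authors' DESeq2-normalized values were not used. Sequencing is described as done through a core facility or Novogene without saying which libraries were run where, so a batch could not be modelled.

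In R 4.3.3, edgeR 4.0.16 filterByExpr (minimum count 10, minimum total 15) left 16646 genes, which were scaled by TMM. All 12 libraries entered 1 quasi-likelihood model with a term for each arm, Benjamini-Hochberg adjustment covered all genes tested, and the threshold was 0.05. SE is the absolute log2 fold change divided by the square root of F. CPM uses the TMM-scaled library size, and FPKM is CPM per kilobase of the deposited gene length. At 14133755 to 22276417 counts per library, 76 members had at least 10 counts in every library. The steps were tested on simulated data. Figures were drawn with matplotlib 3.10.9 in Python 3.11.15.

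Members and lists were chosen with earlier results of these data known, and subunit, origin and role lists were written from general knowledge. Genes are named for the 6 lowest and 6 highest fold changes in COMBO against DMSO, the 3 lowest and 3 highest in every other comparison, calls against the common direction, the role lists, the filter, and the 3 highest and lowest FPKM, with the 3 lowest and highest of each list of other genes. ZNF189, LRRC46 and the other neighbours were chosen after their values were seen. Promoter windows and coordinates are from RefSeq (GRCh38.p14), and the printed stretches and sites were checked letter by letter against hg38.

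The fits were repeated with DESeq2 1.42.0, with TMM replaced by library sizes alone or by the upper quartile, with a looser filter (1 count over all libraries) or a stricter one (10 in each), with the arms outside the comparison dropped, with a replicate block, with each library left out in turn and, chosen after seeing the data, without members inside another gene model. Replicate letters did not pair the libraries. Other assays of the study are not analysed here.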

Additional observations from a re-analysis of the deposited data

Results flagged for a closer look

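The response to 1 agent differed with the other agent present in 18 members, by the interaction term of the edgeR fit over 12 libraries (adjusted p under 0.05). That is 5 negative and 13 positive of 77, where 17.5% of all tested genes were negative and 10.7% positive. Log2 interactions were negative for MRPL23 (-0.76), MRPS25 (-0.54), MRPS14 (-0.48), MRPL41 (-0.29) and MRPL19 (-0.26). They were positive for MRPL3 (0.22), MRPL9 (0.29), MRPS35 (0.30), MRPL49 (0.32), MRPS30 (0.32), MRPL47 (0.34), MRPL48 (0.35), MRPL58 (0.36), MRPS23 (0.37), MRPL39 (0.39), MRPL45 (0.41), MRPS18B (0.46) and MRPL1 (0.47). Of the 13 positive ones, 10 were large-subunit genes, which make up 51 of the 77 tested, and 3 small-subunit genes (MRPS18B, MRPS23 and MRPS35) encode proteins found in mitochondria only. The value of MRPL23 was -0.43 (adjusted p = 0.12) without TAZ library B, which stood apart from the other TAZ libraries for this gene, and DESeq2 gave an adjusted p of 0.21. Calls for MRPL19, MRPL41, MRPL3, MRPL9 and MRPL48 were each lost under 5 to 10 of the alternatives, the call for MRPL23 under 5 and that for MRPS30 under 1, and the other 11 calls kept their side of the threshold under every alternative run.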

How the results depend on the processing

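Directions held in every alternative run for the members called. Of 7385 values of single members under an alternative, 7151 kept their side of the threshold, 175 lost a call and 59 gained one. Counts of lower members were within 1.5 times the reported value in all comparisons except the interaction, where lower calls went from 5 to 3 with DESeq2 and to 3 with at least 10 counts in every library. Scaling moved levels: the median of all genes in COMBO against DMSO moved from 0.06 (TMM) to 0.26 (library sizes alone) and 0.25 (upper quartile). With library size only, the member medians became -0.29 (IPATA against DMSO), -0.60 (TAZ against DMSO), -0.90 (COMBO against DMSO), -0.57 (COMBO against IPATA), -0.34 (COMBO against TAZ) and -0.29 (TAZ against IPATA), and 1 member was called higher in each of IPATA against DMSO, COMBO against DMSO and TAZ against IPATA. With upper quartile scaling they became -0.29, -0.62, -0.92, -0.58, -0.32 and -0.31 in the same order, with 1 member higher in IPATA against DMSO and in COMBO against DMSO. MRPL10 was the member higher than DMSO in each case, and MRPL33 the one higher in TAZ than in IPATA. With at least 10 counts in every library the medians were -1.04 in COMBO against DMSO and -0.64 in COMBO against IPATA, and 1 member was higher in IPATA against DMSO, as it was with only the libraries compared. With genes of at least 1 count, the large minus small subunit median became -0.11 in COMBO against DMSO and 0.051 in COMBO against IPATA. Without members inside another gene model, an alternative chosen after seeing the data, it was -0.12 in COMBO against TAZ and 0.059 in the interaction, whose member median was 0.040.

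Leaving out 1 library at a time gave 0 to 1 members higher in IPATA against DMSO and 2 to 7 lower in the interaction. The member medians ran from -0.40 to -0.32 in IPATA against DMSO, -0.81 to -0.74 in TAZ against DMSO, -0.80 to -0.69 in COMBO against IPATA, -0.43 to -0.37 in TAZ against IPATA and -0.033 to 0.044 in the interaction. The large minus small subunit median ran from -0.11 to -0.066 in IPATA against DMSO, -0.039 to 0.049 in TAZ against DMSO, -0.14 to -0.024 in COMBO against DMSO, -0.016 to 0.058 in COMBO against IPATA, -0.11 to -0.023 in COMBO against TAZ, 0.037 to 0.10 in TAZ against IPATA and -0.017 to 0.081 in the interaction. Its sign thus changed in TAZ against DMSO, COMBO against IPATA and the interaction, and held in the other 4 comparisons. The cause of these shifts was not tested.

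Same-letter libraries of different arms did not deviate together, with correlations from -0.058 to 0.069 over 18 pairs. With the letter as a replicate block, 75 members were lower in COMBO against DMSO and the median was -1.11, and the count in COMBO against IPATA went from 76 to 75. Depth limits MRPL53, MRPL38 and MRPS24, and intervals cover the spread between plates of 1 line only.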
